A study of Ciona robusta with 15 samples.

Results

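Non-regenerating oral siphons of the sea squirt Ciona robusta were compared with oral siphons of day 0, which the labels place immediately after amputation. The comparison was set by the labels and covers 6 of the 15 libraries of the series, 3 non-regenerating and 3 of day 0. The other 9, from siphons 1, 3 and 8 days after amputation, entered the model fit and are otherwise given only as context. All animals were wild type, about 6 months old and 5 to 10 cm long, and were siblings, the offspring of a pair of adults collected in a harbour. The labels give 30 min of anesthesia in 0.04% MS222 and seawater at 15 °C for the animals of all groups alike. Each library was made from the polyadenylated RNA of 5 pooled siphon samples and was read on an Ion Proton instrument. Pooling limits what a library can show: its value is the average of its 5 samples, and p-values measure the spread between pools of a single sibship. The labels do not say what made a siphon non-regenerating, nor how its handling differed from that of day 0.

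Ciona robusta is a solitary tunicate, an invertebrate relative of the vertebrates. Its oral siphon is the muscular tube through which seawater enters the pharynx. It carries bands of body-wall muscle, nerves, pigmented sensory organs along its rim and an epidermis under the cellulose-rich tunic. The tube regrows after amputation in adults and is a standard model of regeneration in chordates.

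The values are read counts per Ensembl transcript. None of the 17745 transcript identifiers was found in the gene table used here (0 of 17745), so they are given without gene names or functions, and the tissue label could not be checked against marker genes. Depth was 18585176, 33413013 and 10573547 counts in non-regenerating replicates 1, 2 and 3, against 18531049, 21646665 and 18713760 in day 0 replicates 1, 2 and 3. Levels are CPM, a transcript's count divided by the scaled library total and expressed per 1e6 counts. The scaling is TMM (trimmed mean of M-values), which gives each library a factor on the assumption that most transcripts do not differ. These factors were 0.758, 0.782 and 0.643 in the non-regenerating libraries, against 0.967, 0.964 and 1.11 at day 0, so results are also given with library totals alone where the scaling changed them. Counts are not divided by transcript length, so levels of different transcripts are compared only as shares of the reads. In bulk tissue, fewer cells of a type and less RNA per cell cannot be told apart.

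The 2 states differed in 28.3% of transcripts, 4336 of the 15328 tested in edgeR's quasi-likelihood test at an adjusted p under 0.05. Higher levels in non-regenerating siphons were called for 14.7%, 2257 transcripts, and lower levels for 13.6%, 2079 transcripts. Calls over 4-fold made up 4.13% of transcripts in the higher direction (633) and 4.19% in the lower (643). This even split depended on the scaling and on single libraries, in counts added after the data were seen. Library totals alone gave 379 higher and 1259 lower. Leaving out non-regenerating replicate 1 gave 701 higher and 1357 lower, and leaving out replicate 2 of that group gave 539 higher and 411 lower. Without non-regenerating replicate 2 the lower calls numbered 1296, and without day 0 replicate 1 the higher calls numbered 1501. With only the 6 compared libraries in the fit, 2776 of 14864 tested transcripts were called, 1532 higher and 1244 lower. With the replicate number also in that fit, the calls numbered 1651. The directions were unequal in abundance. Transcripts averaging 1000 CPM or more over the 6 libraries were mostly higher in non-regenerating siphons, with 96 higher and 7 lower among 176, and their median log2 fold change was 0.95. Below 1000 CPM the calls were split more evenly under TMM. Median log2 fold changes were 0.45 under 1 CPM and between -0.01 and 0.06 from 1 CPM up to 1000 CPM.

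Under TMM the share of transcripts called grew with abundance, while the typical size of a called difference did not. Among transcripts under 1 CPM, 7.91% were called, 51 higher and 33 lower of 1062. From 1 to 10 CPM the share was 21.5%, with 553 higher and 675 lower of 5700. From 10 to 100 CPM it was 33.2%, with 1201 higher and 1133 lower of 7031. From 100 to 1000 CPM it was 43.2%, with 356 higher and 231 lower of 1359. At 1000 CPM and over it reached 58.5%. With library totals alone the shares were 10%, 28.9%, 43.7%, 51.9% and 43.8% from the lowest class to the highest, so the increase ended before the top class. The median absolute log2 fold change of the called transcripts was 2.66, 1.77, 1.22, 1.38 and 1.56 from the lowest class to the highest. Over all tested transcripts of a class, called or not, it was 0.88, 0.71, 0.53, 0.69 and 1.12. Sizes of calls cover only differences that passed the threshold, so they do not describe a whole class. Calls among rare transcripts were mostly large, and 84.5% of those under 1 CPM exceeded 4-fold, compared with 21.6% between 10 and 100 CPM.

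Pools of non-regenerating siphons also varied more than those of day 0 in each of the 5 classes. The median within-group SD of log2 CPM was 0.45, 0.52, 0.36, 0.36 and 0.36 in the non-regenerating group from the lowest class to the highest, against 0.35, 0.32, 0.23, 0.25 and 0.25 at day 0. The biological coefficient of variation, the relative spread between pools beyond counting error, was 0.497 in the non-regenerating group and 0.287 at day 0. Without non-regenerating replicate 1 it was 0.403.

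**Figure D1:**
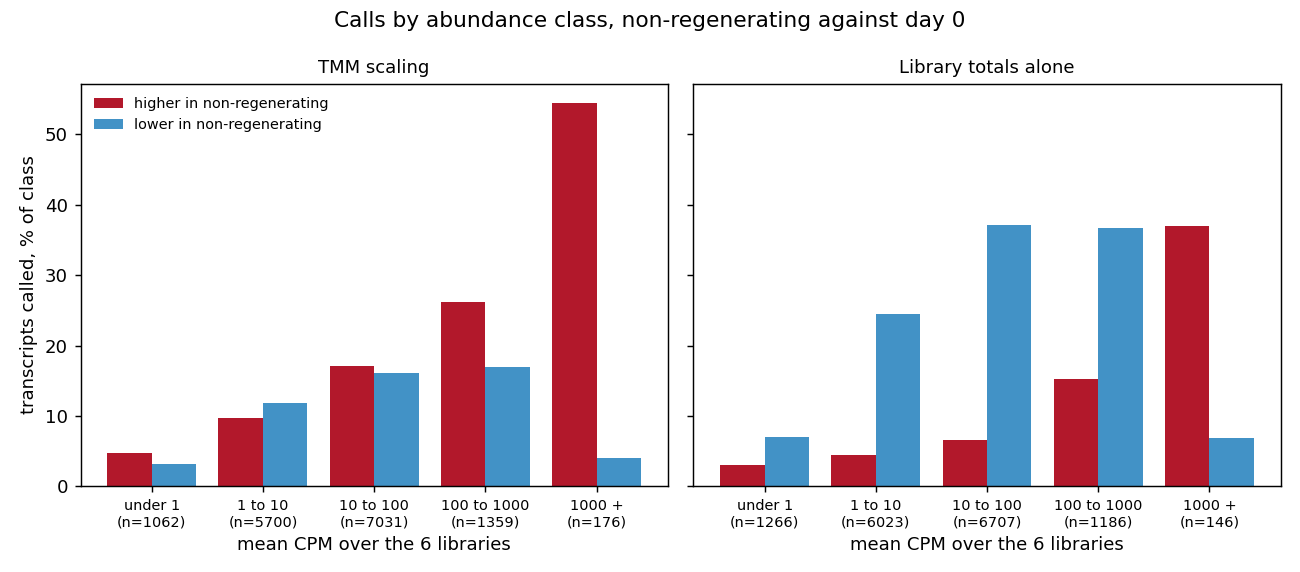
Share of transcripts called higher (red) or lower (blue) in non-regenerating siphons relative to day 0, in % of each class of mean CPM over the 6 libraries, with TMM scaling (left) and with library totals alone (right). With TMM the classes from 1 to 1000 CPM hold calls in both directions and the top class is mostly higher, while library totals alone turn the classes under 1000 CPM mostly lower and leave the top class mostly higher.

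The excess of higher calls among the most abundant transcripts held under both scalings, and the balance of the other classes did not. With library totals alone the median log2 fold change of all transcripts moved to -0.44, from 0.037 with TMM. The class of 1000 CPM and over then held 54 higher and 10 lower of 146, and 18.0% of all calls were higher, compared with 52.1% under TMM. From 10 to 100 CPM, library totals gave 445 higher and 2488 lower calls. When the classes were formed from days 1, 3 and 8, which the contrast does not use, the top class held 46 higher and 11 lower of 122. The class under 1 CPM held 151 higher and 21 lower of 1252. A transcript that rare on days 1, 3 and 8 could pass the filter on low counts through the non-regenerating libraries, so that split is partly set by the filter and is no result.

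The counts of non-regenerating siphons were concentrated in fewer transcripts. The 100 most counted transcripts of a library held 50.7%, 47.57% and 50.48% of its counts in non-regenerating replicates 1, 2 and 3, against 38.52%, 37.37% and 35.9% in day 0 replicates 1, 2 and 3. All 3 non-regenerating libraries lay above all 3 of day 0. The group means differed by 12.3 percentage points, at 49.6 ± 1.75% and 37.3 ± 1.31% (SD, n = 3 each). To reach 50% of the counts took 96, 117 and 98 transcripts in the non-regenerating libraries, against 237, 253 and 287 at day 0. To reach 90% took 3376, 3295 and 2691 in the non-regenerating libraries, against 4173, 4175 and 4688 at day 0.

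The single most counted transcript of each library, which was not the same transcript in the 2 groups, contributed little to this gap. It held 6.55 ± 0.643% of the counts in non-regenerating libraries and 5.32 ± 0.722% at day 0 (SD, n = 3 each), and these ranges overlapped. For the top 10, 20, 100 and 1000 transcripts and for the numbers needed to reach 50% and 90%, the groups did not overlap. Each of these 6 measures had p = 0.1 in an exact two-sided permutation test, the smallest that 3 against 3 libraries allow, and the single most counted transcript had an exact permutation p of 0.2. Against the 12 libraries of days 0, 1, 3 and 8 together, which mixes 4 stages, the top 100 held 49.6 ± 1.75% and 35.7 ± 1.93%, with an exact permutation p of 0.0044, the smallest for 3 against 12 libraries, and an adjusted p of 0.0103 over 14 such tests. The deepest and the shallowest library of the 6 were both non-regenerating, and non-regenerating replicate 1 had nearly the total of day 0 replicate 1. Whether depth bears on these shares was not tested.

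**Figure D2:**
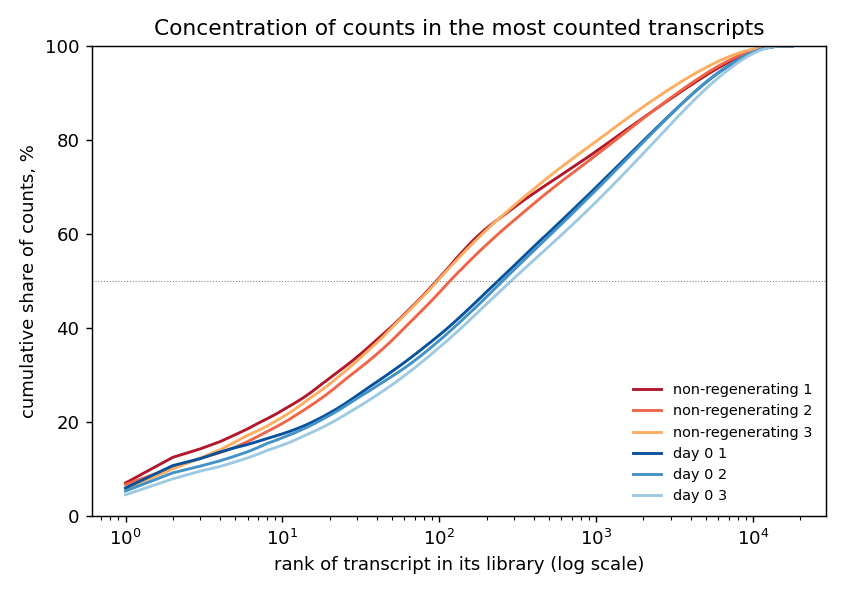
Cumulative share of counts (%) against the rank of a transcript in its own library (log scale) for the 3 non-regenerating libraries (red to orange) and the 3 of day 0 (blue). The non-regenerating curves cross 50% at 96 to 117 transcripts and those of day 0 at 237 to 287.

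Different transcripts led the 2 states. The 20 with the highest mean share in each group had 10 in common, 50% of each list, and the top 100 had 63 in common, 63% of each. The 20 leading transcripts of the non-regenerating group held 27.3%, 26.1% and 27.8% of its libraries' counts, against 7.89%, 8.34% and 10.3% in those of day 0. The 20 leading transcripts of day 0 held 14.2%, 11.8% and 13.1% of all reads counted in non-regenerating libraries, against 21.5%, 20.9% and 18.8% at day 0. Among them, ENSCINT00000009238 averaged 5.32% at day 0 and 0.491% in non-regenerating libraries, and ENSCINT00000009234 averaged 4.0% and 0.183%. Together these 2 fell by more than the whole list did on average. Neither was called, and both are described below. Of the leading 20 of the non-regenerating group, 17 were called higher and 0 lower, beside 14.7% higher and 13.6% lower over all tested transcripts. Of the leading 20 of day 0, 8 were called higher and 1 lower in non-regenerating siphons. The leading 100 of the non-regenerating group held 71 higher and 0 lower, and with library totals alone 53 and 1. The leading 100 of day 0 held 38 higher and 8 lower, and with library totals alone 19 and 13. Over all 15328 tested transcripts, library totals alone gave 986 higher and 4496 lower. The lists were ranked on the same libraries, so these counts are a description.

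Summed over all calls, the 2257 higher transcripts took up 56.7%, 57.5% and 54.4% of each non-regenerating library, against 19.7%, 19.2% and 25.4% at day 0. The 2079 lower transcripts took up 4.44%, 3.62% and 3.41% of each non-regenerating library, against 16.6%, 17.5% and 15.2% at day 0. The transcripts that were not called or not tested made up the remaining 38.9%, 38.9% and 42.2% in non-regenerating siphons, against 63.7%, 63.3% and 59.4% at day 0. The calls come from the same counts, so these sums describe how large the called transcripts are and test nothing.

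ENSCINT00000019271 had the largest gain in share of all called transcripts. It was the most counted transcript of every non-regenerating library, at 93300, 86400 and 90700 CPM, against 1190, 2720 and 4730 CPM at day 0, where it ranked 107, 33 and 13. The log2 fold change was 4.97 ± 0.73 (SE), at an edgeR adjusted p of 0.000478, and it passed in 16 of 16 alternatives. Across the libraries of days 1, 3 and 8 it lay between 1110 and 5980 CPM, so no library outside the non-regenerating group came near that level. ENSCINT00000015480, singled out after its values were seen, ranked 2 in all 3 non-regenerating libraries, at 72000, 45500 and 65900 CPM, against 715, 852 and 3400 CPM at day 0. Its log2 fold change was 5.21 ± 0.93 (SE), at an edgeR adjusted p of 0.00162.

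ENSCINT00000012810 had the largest loss of share among called transcripts. It stood at 549, 0.881 and 1.18 CPM in non-regenerating replicates 1, 2 and 3, against 6980, 9480 and 1680 CPM at day 0. The groups did not overlap, but replicate 1 lay far above the other non-regenerating pools. The log2 fold change was -5.04 ± 1.71 (SE), at an edgeR adjusted p of 0.0417, and it passed in 8 of 16 alternatives, with adjusted p from 2.7e-06 to 0.177.

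The 2 most counted transcripts of day 0 behaved in the same way but did not pass the test. They are named here because of their values. ENSCINT00000009238 ranked 1 in each day 0 library. It held 19400, 2.03 and 0.882 CPM in non-regenerating replicates 1, 2 and 3, against 62200, 55700 and 41000 CPM at day 0. ENSCINT00000009234 ranked 2 in each day 0 library and held 7230, 0.268 and 1.03 CPM in the non-regenerating libraries, against 49200, 40000 and 30300 CPM at day 0. Replicates 2 and 3 had lost both transcripts almost entirely, with 53 and 6 counts of ENSCINT00000009238 and 7 and 7 of ENSCINT00000009234. Replicate 1 kept 273598 and 101744 counts.

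Their test differed with the libraries and the method used. The log2 fold change of ENSCINT00000009238 was -3.03 ± 2.02 (SE), at an edgeR adjusted p of 0.274, and without non-regenerating replicate 1 it was -15.05 with an adjusted p of 3.18e-06. ENSCINT00000009234 had -4.05 ± 2.09 (SE), at an edgeR adjusted p of 0.16, and -16.2 with an adjusted p of 3.34e-06 without that library. With all libraries kept, limma voom gave -10.25 at an adjusted p of 0.0137 for ENSCINT00000009238 and -11.75 at 0.00432 for ENSCINT00000009234. Neither transcript was among the 105 sets of transcripts whose counts agreed within 1%, a search that finds near-identical counts and not smaller overlaps of reads. On days 1, 3 and 8 ENSCINT00000009238 ranged from 7630 to 51400 CPM.

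**Figure D3:**
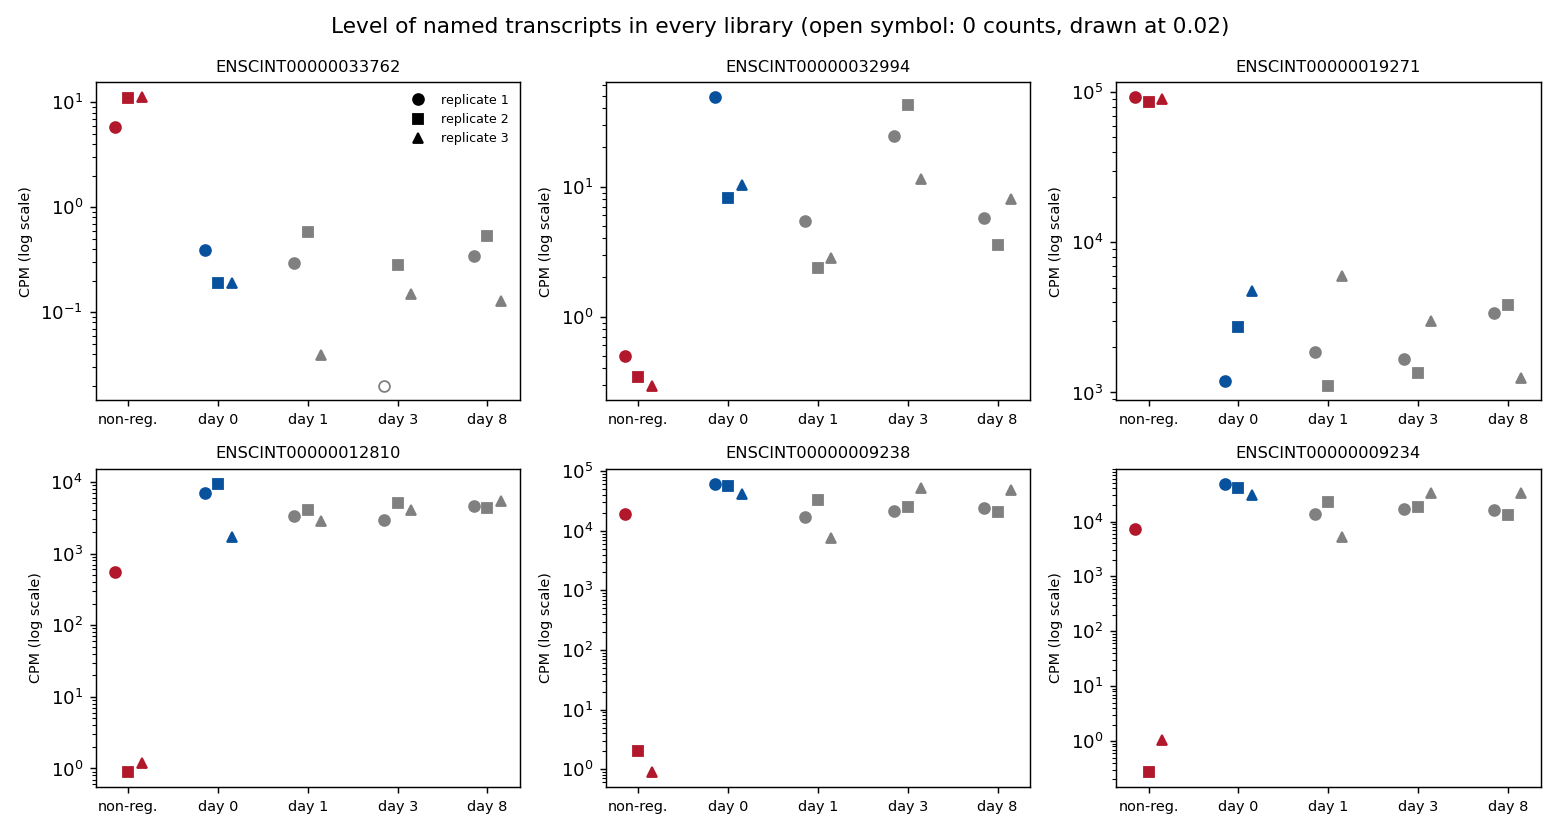
CPM (log scale) of 6 transcripts in all 15 libraries, with non-regenerating in red, day 0 in blue and days 1, 3 and 8 in grey, and a symbol shape per replicate number. ENSCINT00000012810, ENSCINT00000009238 and ENSCINT00000009234 show non-regenerating replicate 1 between the other 2 non-regenerating pools and day 0, whereas ENSCINT00000019271 shows all 3 non-regenerating pools together at 86400 to 93300 CPM.

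Transcripts that were near on or off between the groups as a whole were rare. Near on/off was taken as 5 CPM or more in every library of a group and under 0.5 CPM in every library of the other. A level of 0.5 CPM is 7.0, 13.1 and 3.4 counts in non-regenerating replicates 1, 2 and 3, against 9.0, 10.4 and 10.4 counts at day 0. A single transcript met the rule in each direction (1 and 1), beside 1.13% of tested transcripts called over 10-fold higher, 173, and 0.796% called over 10-fold lower, 122. With CPM of the library total, 0 transcripts were on in non-regenerating siphons and 1 at day 0.

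ENSCINT00000033762 was the transcript on in non-regenerating siphons, at 5.83, 11.0 and 11.3 CPM, against 0.391, 0.192 and 0.192 CPM at day 0. These are 82, 287 and 77 counts in the non-regenerating libraries against 7, 4 and 4 at day 0. Its log2 fold change was 5.16 ± 0.76 (SE), at an edgeR adjusted p of 0.000447. On days 1, 3 and 8 it stayed between 0 and 0.577 CPM. ENSCINT00000032994 was the transcript on at day 0, with 0.497, 0.345 and 0.294 CPM in the non-regenerating libraries, against 49.1, 8.24 and 10.3 CPM at day 0. Its log2 fold change was -5.84 ± 0.85 (SE), at an edgeR adjusted p of 0.000493. On days 1, 3 and 8 it lay between 2.36 and 42.1 CPM, above every non-regenerating library.

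Setting non-regenerating replicate 1 aside raised these numbers, mostly for transcripts on at day 0. The number of transcripts on in non-regenerating replicates 2 and 3 and off in all 3 day 0 libraries was then 5, and the number off in these 2 pools and on in all day 0 libraries was 50. Setting aside replicate 2 or replicate 3 instead gave 3 on in non-regenerating siphons and 1 on at day 0 in each case. Looser gaps, added after the data were seen, also gave a larger rise at day 0 without replicate 1. Setting aside replicate 2 or replicate 3 was not done for these gaps. The gap was at least 10-fold between the nearest libraries of the groups, with at least 1 CPM in each library of the higher group. It was met by 32 transcripts higher in non-regenerating siphons and 15 higher at day 0, 0.209% and 0.0979% of those tested. Without replicate 1 these became 62 and 307, 0.404% and 2%.

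The 50 transcripts on at day 0 spanned a wide range of levels, with day 0 means from 5.65 to 1340 CPM and a median of 11.2 CPM. Of these, 19 averaged under 10 CPM, 26 from 10 to 100 CPM and 5 at least 100 CPM. In replicate 2 no member had more than 13 counts and in replicate 3 none had more than 3, with 10 members at 0. Summed over the 50, the counts were 16571, 337 and 71 in non-regenerating replicates 1, 2 and 3, against 82197, 156684 and 38541 at day 0.

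Non-regenerating replicate 1 lay above the other 2 pools in all 50 transcripts and below the lowest day 0 library in 39 of them. Its level was a median of 30.0% of the day 0 mean, with quartiles of 18.8% and 57.7%, and it was at 5 CPM or more in 25 and under 0.5 CPM in 1. With replicate 1 kept, only 1 transcript met the rule, so the count under 0.5 CPM restates the choice. For nearly all of the 50 the place of replicate 1 above the other pools restates it too. The libraries of days 1, 3 and 8 played no part in choosing the 50. None of those 9 libraries had a member under 0.5 CPM, and the lowest value was 0.706 CPM. Of the members, 13 were at 5 CPM or more in all 9 and all 50 in at least 1. These counts were not made for all transcripts on at day 0, so they cannot be read as particular to the 50. Of the 50, 30 were called with all libraries and 49 without replicate 1. Over all tested transcripts 28.3% and 32.2% were called in either direction. The calls of the 50 restate the choice and are no separate result.

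**Figure D4:**
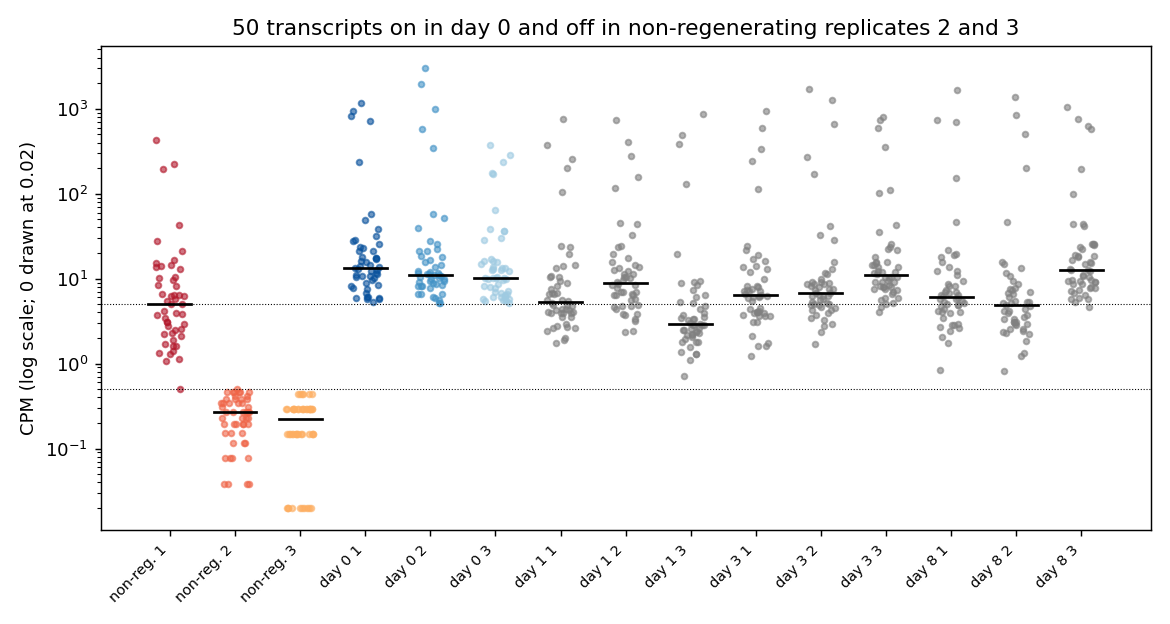
CPM (log scale, 0 drawn at 0.02) of the 50 transcripts in each of the 15 libraries, with a line at the median and dotted lines at the limits of 0.5 and 5 CPM that chose them in day 0 and in non-regenerating replicates 2 and 3. The median was 5.01, 0.268 and 0.221 CPM in non-regenerating replicates 1, 2 and 3 and 13.5, 11.2 and 10.3 CPM at day 0.

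The 5 transcripts of the opposite kind were low throughout. They were ENSCINT00000033762, described above, with ENSCINT00000030190, ENSCINT00000030170, ENSCINT00000035700 and ENSCINT00000027619, which the rule for naming did not cover. In replicate 1 they lay between 1.92 and 5.83 CPM, above every day 0 library, and 1 of them reached 5 CPM. ENSCINT00000030170 was the rarest outside the group, at 1.92, 5.13 and 7.21 CPM in the non-regenerating libraries against 0, 0.0479 and 0.24 CPM at day 0. None of the 5 exceeded 1.47 CPM in a library of days 1, 3 or 8.

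To place non-regenerating replicate 1 between the other pools and day 0 without using it to choose transcripts, the model was refitted without it. That fit called 32.2% of 15464 transcripts, 2290 higher (14.8%) and 2694 lower (17.4%). For each call the position of the left-out library was measured on the log2 CPM scale, from 0 at the day 0 mean to 1 at the mean of the other 2 non-regenerating pools. Among higher transcripts replicate 1 had a median position of 0.78, with quartiles of 0.48 and 1.03. Among lower transcripts the median was 0.47, with quartiles of 0.19 and 0.82. Replicate 1 thus lay nearer to its own group in the higher set and about midway in the lower set, on the log2 scale with TMM. With library totals alone the medians were 0.79 in 946 higher and 0.66 in 4629 lower transcripts.

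Under TMM, by the medians over all calls, the other pools placed in the same way lay nearer to their own group. Replicate 2 had median positions of 0.96 in 1687 higher (10.9%) and 1.03 in 1296 lower transcripts (8.37%), from a fit that called 19.3%. Replicate 3 had 0.89 in 2023 higher (13%) and 0.91 in 1848 lower transcripts (11.8%), from a fit that called 24.8%. With library totals alone the higher and lower medians were 1.08 and 0.92 for replicate 2, and 0.75 and 1.09 for replicate 3. In the higher set replicate 3 then lay slightly farther from its own group than replicate 1 did. Under TMM, placed from 0 at the non-regenerating mean to 1 at the other 2 pools of their own group, the day 0 libraries had medians between 0.84 and 1.0. The fits without day 0 replicates 1, 2 and 3 called 18.9%, 19% and 22.6%, with 9.69%, 9.83% and 11.4% higher and 9.21%, 9.21% and 11.1% lower. For replicates 2 and 3, replicate 1 took part both in the calls and in the endpoint of 1. The 3 pools were thus placed on different transcripts and endpoints, and their contrast with replicate 1 is partly built in. Each position comes from a single library, so no test is given.

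The same placing can be read from ranges, with the same limit on comparing the pools. In the lower set, replicate 1 lay within or beyond the range of day 0 in 582 transcripts, 21.6%, strictly between the groups in 1463, 54.3%, and within or beyond the range of the other 2 pools in 648, 24.1%. Replicate 2 lay within or beyond its own group in 69.1% of its lower set and replicate 3 in 53.7%. In the higher set, replicate 1 lay within or beyond the range of day 0 in 300 transcripts, 13.1%, between the groups in 990, 43.2%, and within or beyond the other pools in 996, 43.5%. For replicates 2 and 3 the last of these shares was 65% and 53.2%.

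**Figure D5:**
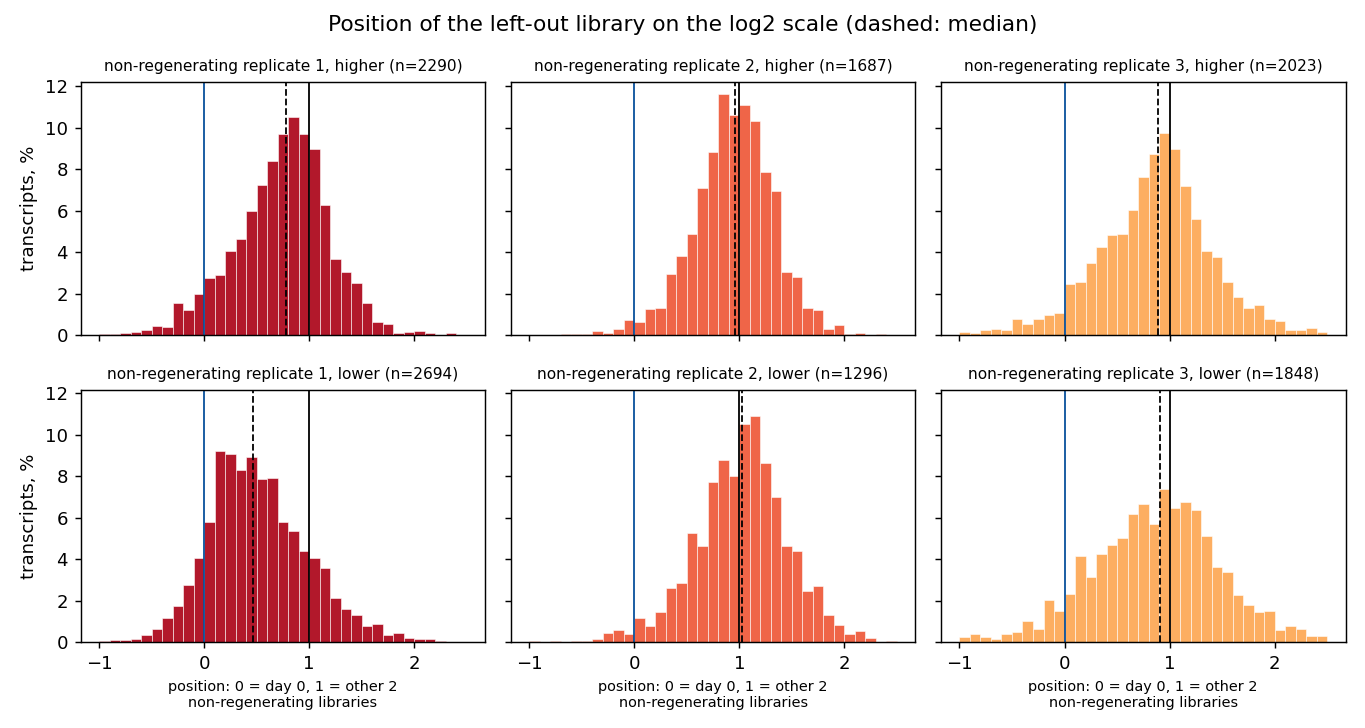
Distribution of the position of each left-out non-regenerating library (columns, replicates 1 to 3) over transcripts called higher (top) or lower (bottom) without it, in % of transcripts per bin of 0.1, drawn from -1 to 2.5. The blue line is day 0, the black line the other 2 non-regenerating pools and the dashed line the median, which is 0.78 and 0.47 for replicate 1 and 0.89 to 1.03 for the others.

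The position of replicate 1 depended on how strongly a transcript was lower. Its median was 0.72 for the 414 transcripts lower by under 2-fold, 0.61 for 923 by 2- to 4-fold, 0.37 for 1011 by 4- to 16-fold and 0.26 for 346 by 16-fold and over. Among higher transcripts it was 0.76, 0.77, 0.79 and 0.85 over the same sizes. By abundance, the lower transcripts gave 0.35 from 1 to 10 CPM, 0.52 from 10 to 100 CPM and 0.78 from 100 to 1000 CPM, and the higher ones 0.77, 0.77 and 0.79. At 1000 CPM and over the median was 0.91 in 93 higher transcripts, the highest of these medians, and 0.21 in 12 lower ones. Among higher transcripts of that class replicate 2 had 0.78 and replicate 3 had 1.08.

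The gap between the directions depended on the scale and on the scaling. It was smaller with library totals, as given above, and absent with linear values. On the linear CPM scale the median position of replicate 1 was 0.64 in higher transcripts, with quartiles of 0.32 and 1.01, and 0.66 in lower ones, with quartiles of 0.36 and 0.91. Replicate 2 had 0.89 and 1.03 on that scale and replicate 3 had 0.80 and 0.96. With linear values the lower transcripts of replicate 1 still ran from 0.79 under 2-fold to 0.55 at 16-fold and over, and the higher ones from 0.69 to 0.58.

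Distances between whole libraries put replicate 1 nearer to day 0 than replicates 2 and 3 were. Its place within its own group differed between the measures. Its median absolute log2 difference over 15328 transcripts was 0.40 from replicate 2 and 0.56 from replicate 3, compared with 0.57 to 0.61 from the day 0 libraries. Replicates 2 and 3 were 0.48 apart and lay 0.67 to 0.75 from day 0, whose own libraries were 0.25 to 0.37 apart. Replicate 1 differed by 4-fold or more from day 0 libraries in 847 to 1101 transcripts, whereas replicates 2 and 3 did so in 1871 to 2102. From its own group it differed that much in 728 transcripts for replicate 2 and 1124 for replicate 3. For replicates 2 and 3 against each other this count was 357. By the median difference replicate 1 was nearer to replicate 2 than replicate 3 was, and by this count it was farther.

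Replicate 1 lay above all of the other 5 libraries in 2415 transcripts and below all of them in 2246, compared with 2878 and 2515 for replicate 2 and 3396 and 3704 for replicate 3. It lay 4-fold or more above all of them in 2 transcripts and below all of them in 7, where replicate 2 did so in 11 and 11 and replicate 3 in 31 and 45. Its place in concentration of counts depended on the measure. Its top 20 transcripts held 29.35% of the counts, the highest of the 6 libraries, compared with 26.38% and 28.15% in replicates 2 and 3 and 19.7% to 21.96% at day 0. Its top 1000 held 77.6%, between 76.8% and 79.74% in replicates 2 and 3, and the 3376 transcripts it took to reach 90% put it on the day 0 side of its group. The labels give no batch, date or animal by which replicate 1 could be set apart, and what its place reflects was not tested.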

How the data were processed

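Polyadenylated RNA of Ciona robusta oral siphons was sequenced in 15 libraries, grouped by their labels. The authors deposited raw read counts per Ensembl transcript, with no normalization. TopHat, Bowtie and HTSeq are named in the submitters' processing notes; their versions, roles and settings, and the genome build, annotation and strand use, are not given in the sources, so reads shared by isoforms, copies or antisense transcripts cannot be told apart. Of 17745 transcripts, 69 had no count.

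Here, edgeR 4.0.16 (R 4.3.3) dropped 2417 transcripts with its default expression filter (minimum count 10) and kept 15328, with at least 99.95% of each library's counts. All 15 libraries, TMM scaled, entered 1 quasi-likelihood fit with 5 group means. On simulated data this fit recovered 16% of 100 transcripts changed 2-fold and 70% of 100 changed 4-fold. It made 5 calls among the unchanged transcripts. Differences of these sizes can therefore be missed. Only these transcripts were changed, far fewer than the 4336 called in the data, and all groups were given the same spread. The simulation thus does not give the share missed in these data. P-values are two-sided, with Benjamini-Hochberg adjustment over all tested transcripts and a threshold of 0.05. Log2 levels used a pseudocount of 0.5 CPM. Permutation tests used scipy 1.17.1. DESeq2 1.42.0 and limma 3.58.1 served as alternatives. Replicate libraries differed far beyond sampling noise, with a chi-square per degree of freedom of at least 41.2, and each counted as 1 sample.

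Named transcripts were, in each direction, the near on/off transcript with the largest fold change and the called transcript with the largest difference in share of counts; others were chosen after their values were seen. Groups, rules and alternatives were chosen with earlier results of these data known. Intervals are not given for counts, and depth limits the off threshold as stated beside it.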

Additional observations from a re-analysis of the deposited data

How the results depend on the processing

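Over 16 alternatives of the fit the number of calls ran from 1651 to 5482, and the directions of the named transcripts held in each fit that tested them, which was 15 of 16 for ENSCINT00000033762 and 16 for the others. With library totals alone there were 986 higher and 4496 lower calls. The 6 libraries alone gave 2776 calls, 1244 of them lower. Leaving out each of the 6 libraries in turn gave 2928 to 4984 calls, with 1501 to 2290 higher and 1296 to 2694 lower; the lowest numbers of higher and lower calls came without day 0 replicate 1 and without non-regenerating replicate 2. Same-numbered libraries showed no sign of pairing in their levels. Their deviations correlated at -0.034, -0.052 and -0.078 across transcripts, and no library correlated best with its own number. All such correlations were small, the highest 0.064, and cannot show whether pools were paired in handling. With the replicate number as a block, all 15 libraries gave 3917 calls and the 6 libraries alone 1651, of which 849 were higher and 802 lower. DESeq2 called 5468 transcripts and limma voom 5082. The share called under 1 CPM was 13.7% with classes from days 1, 3 and 8 and 3.3% to 7.79% with a library left out, at 3.68%, 4.68%, 3.3% and 4.64% without non-regenerating replicate 2 and day 0 replicates 1, 2 and 3. That of 1 to 10 CPM was 13.0% to 28.7%, lowest without non-regenerating replicate 2 and day 0 replicates 1 and 2, of 10 to 100 CPM 22.8% to 36.3%, of 100 to 1000 CPM 31.8% to 43.9% and of 1000 CPM and over 48.6% to 63.3%, and 43.8% with library totals alone. Near on/off counts rest on the limits chosen: 2 transcripts were on in non-regenerating siphons and 1 at day 0 at 1 CPM against 0.1 CPM, 1 and 0 at 10 CPM against 1 CPM, 9 and 3 at 2 CPM against 0.5 CPM, and 0 and 1 with CPM of the library total. With a library left out they were 1 to 5 in non-regenerating siphons and 1 to 50 at day 0. The difference in the share of the top 20 was 6.92 percentage points and 6.23 to 7.71 with a library left out. The position of non-regenerating replicate 1 moved to 0.64 in higher transcripts on linear CPM; pseudocounts of 0.1 and 2 CPM, added after seeing the data, gave 0.79 and 0.77 for higher and 0.45 and 0.51 for lower transcripts. ENSCINT00000012810 missed the threshold in 8 alternatives, and ENSCINT00000009238 and ENSCINT00000009234 passed in 2 each, limma voom and the fit without non-regenerating replicate 1. Depth limits the lowest class and the off state, which in non-regenerating replicate 3 means at most 3 counts. The cause of these changes was not tested.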
